A study of Mus musculus with 41 samples.

Results

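Epidermal stem cells collected at night, at zeitgeber time 16 (ZT16), were compared with those collected by day, at ZT4, in mice fed a control diet. Zeitgeber time counts hours from lights on, so that ZT4 falls in the rest phase and ZT16 in the active phase of a mouse. The members are 7 of the 41 arrays of the series: 3 arrays titled control diet T4 and 4 arrays titled control diet T16. The mice of both groups were females of the strain C57B6/J, of wild type genotype and 15 weeks of age. They had eaten the control diet freely for 7 weeks, starting at 8 weeks. They differed in the time of collection alone, by the labels. All mice killed on 1 day belonged to 1 time point, so time point and collection day coincide and cannot be told apart. The design planned 4 mice per time and diet. Whether each array holds the RNA of its own mouse is not stated in the sources used here. The p-values therefore rest on the spread of arrays within groups, which may be technical. That spread is pooled for each gene over all 12 diet and time groups. Values are log2 RMA expression values, 1 probe set per gene, for 17097 genes. A difference of 1 on this scale is a 2-fold change. Array values are given in replicate order, and differences are ZT16 minus ZT4 with the standard error (SE) of the fit.

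The circadian clock of a mammalian cell is a feedback loop. Its activators BMAL1 (gene Arntl) and CLOCK bind E-boxes and switch on the Per and Cry genes, whose proteins return to repress the activators. The same loop drives the PAR bZIP factors Dbp, Tef and Hlf, which act through D-boxes, and nuclear receptors that act on Arntl. In the interfollicular epidermis of the mouse, DNA replication is known to be timed by this clock, and its peak falls at night.

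The labels name the cells epidermal stem cells of the epidermis, and the method of isolation is not given in the sources used here. Krt5, Krt14, Itga6, Itgb4, Trp63 and Col17a1, which define basal keratinocytes, lay between 10.9 and 12.8 on all 7 arrays. None of the 11 measured genes of the basal keratinocyte list passed the test between the times, against 6.28% of all genes. Krt1 and Krt10, keratins of suprabasal cells, were between 11.9 and 12.7 on every array. Cd34, a surface marker of hair follicle bulge cells, was between 5.19 and 6.09, and the pan-leukocyte gene Ptprc between 4.18 and 4.43. Levels of different probe sets cannot be ranked against each other.

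Array medians lay between 6.41 and 6.44, and no pair of arrays was identical. Arrays of 1 time correlated at 0.989 to 0.993, and arrays of different times at 0.983 to 0.990. The first principal component of the 7 arrays held 43.6% of their variance. It separated the times: ZT16 arrays scored 4.37 or more and ZT4 arrays -14.0 or less. ZT16 array 4 had the lowest ZT16 score on it and stood apart on the second component (17.0% of variance), at 18.3 against -2.92 for the median of the other ZT16 arrays.

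Because clock and cell cycle genes moved in groups, the promoters of 6 called genes that held matches to known motifs are shown first, from RefSeq (build GRCm38.p6), each as the 250 bases before the transcription start, 5′ to 3′ on the gene's strand. Capitals mark matches to the searched letters on either strand. For clock genes these were the E-box CACGTG, the related CACGTT, the D-box TTATGTAA or TTACGTAA and the retinoid orphan receptor element TAGGTCA or TGGGTCA. For replication genes they were the E2F site TTTCCCGC or TTTGGCGC. For mitotic genes they were the cell cycle homology region TTTGAA or TTCGAA, abbreviated CHR, and the box CCAAT. The windows lie at chr4:151044666-151044915 (minus strand) for Per3, chr10:85185055-85185304 (minus) for Cry1, chr15:81802423-81802672 (plus) for Tef, chr1:128359706-128359955 (minus) for Mcm6, chr4:118437344-118437593 (minus) for Cdc20 and chr9:70421555-70421804 (minus) for Ccnb2.
Per3: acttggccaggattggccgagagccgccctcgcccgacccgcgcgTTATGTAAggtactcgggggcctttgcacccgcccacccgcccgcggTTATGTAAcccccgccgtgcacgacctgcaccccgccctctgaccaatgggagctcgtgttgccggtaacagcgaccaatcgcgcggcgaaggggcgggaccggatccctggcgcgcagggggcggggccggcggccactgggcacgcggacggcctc
Cry1: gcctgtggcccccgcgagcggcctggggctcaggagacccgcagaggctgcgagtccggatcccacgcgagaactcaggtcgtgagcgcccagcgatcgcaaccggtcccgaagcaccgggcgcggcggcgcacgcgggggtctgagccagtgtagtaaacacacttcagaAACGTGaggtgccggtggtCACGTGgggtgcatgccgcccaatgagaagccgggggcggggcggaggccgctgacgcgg
Tef: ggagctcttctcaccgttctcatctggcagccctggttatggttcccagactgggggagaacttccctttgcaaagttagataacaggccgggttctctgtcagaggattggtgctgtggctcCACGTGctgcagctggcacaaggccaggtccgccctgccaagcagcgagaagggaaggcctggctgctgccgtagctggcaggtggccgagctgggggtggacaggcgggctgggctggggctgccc
Mcm6: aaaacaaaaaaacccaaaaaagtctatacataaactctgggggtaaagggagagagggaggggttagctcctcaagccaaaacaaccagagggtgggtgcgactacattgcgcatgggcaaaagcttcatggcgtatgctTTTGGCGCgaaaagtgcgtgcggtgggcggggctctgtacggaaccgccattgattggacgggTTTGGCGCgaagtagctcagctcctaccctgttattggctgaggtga
Cdc20: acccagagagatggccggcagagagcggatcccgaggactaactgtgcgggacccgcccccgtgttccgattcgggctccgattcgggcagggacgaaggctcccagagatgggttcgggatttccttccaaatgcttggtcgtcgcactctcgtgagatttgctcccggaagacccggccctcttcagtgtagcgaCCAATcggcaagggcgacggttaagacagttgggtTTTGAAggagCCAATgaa
Ccnb2: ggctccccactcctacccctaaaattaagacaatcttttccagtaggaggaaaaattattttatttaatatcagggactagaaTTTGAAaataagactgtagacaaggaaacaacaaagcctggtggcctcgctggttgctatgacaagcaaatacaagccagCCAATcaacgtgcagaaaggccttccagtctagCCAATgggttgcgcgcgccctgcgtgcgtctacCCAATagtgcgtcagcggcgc

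Per3 held 2 D-boxes, 205 and 158 bases before the start. Cry1 held an E-box 60 bases before it and the related CACGTT letters 79 bases before it. Tef held an E-box at 127 bases. Mcm6 held 2 E2F matches, at 110 and 47 bases. Cdc20 held a CHR at 18 bases between CCAAT boxes at 53 and 8 bases, and Ccnb2 a CHR at 167 bases with 3 CCAAT boxes. Another CHR of Ccnb2 lay 4 bases after the start, outside the part shown. The 6 were picked for their matches. The windows of other called genes, Dbp and Hlf among the clock genes and Mcm2, Cdc45, Rrm1, Rrm2, Tyms, Prim1, Rfc4, Chaf1b and Uhrf1 among the replication genes, held none of the letters searched for their group. The shares that follow come from whole table windows of 300 bases, which add 50 bases after the start. A CHR was found in 85.7% of 21 windows of measured mitosis genes and in 19.2% of all 32851 windows, and a CCAAT box in 90.5% and 37.4%. Of the 24 measured mitosis genes, 5 were called. Among windows of all genes that fell at ZT16, 15.3% held a CHR and 41.4% a CCAAT box. These shares were close to the 15.0% and 37.6% of windows of genes tested. An E2F match was found in 30.4% of 23 windows of the replication genes against 1.56% of all windows and 2.29% of those of genes tested. Among windows of all genes that rose, 5.1% held one. An E-box was found in 57.1% of 7 windows of clock repressors against 7.15% of all windows and 8.69% of those of genes tested. Among all windows of genes that rose at ZT16, 11.7% held an E-box, and among those of genes that fell, 11.3%. A D-box was found in 1.06% of all windows and in 14.3% of those of clock repressors, which is the Per3 window alone. A match describes letters and shows no binding.

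Between ZT4 and ZT16, 1074 of 17097 genes passed the test (6.28%; limma, Benjamini-Hochberg adjusted p under 0.05). Of these, 586 were higher (3.43% of genes tested) and 488 lower (2.85%) at ZT16. With the median of all probe sets subtracted from each array, the split turned to 462 higher and 590 lower. Most changes were small, with a median size of 0.47 among called genes. A 2-fold change was reached by 75 genes, 28 higher and 47 lower. Values of the 2 times did not overlap for 1002 of the called genes, and for 17.8% of all genes. The count of called genes ranged from 505, without ZT4 array 1, to 1112, without ZT16 array 4. It was 666 and 677 without ZT16 array 1 and 3, and 686 and 690 without ZT4 array 2 and 3.

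Clock repressors and output factors were higher at night. Of 8 measured repressors, 4 were higher at night, against 3.43% of all genes, and none lower. Their median difference was 0.54 (all genes, 0.01), and 0.34 without ZT4 array 2. Per2, a core repressor, was 6.76, 6.97 and 6.49 on the ZT4 arrays and 8.37, 8.06, 8.46 and 8.40 on the ZT16 arrays. All night arrays were above all day arrays, a difference of 1.58 (SE 0.14, 2.99-fold, adjusted p = 1.40e-08). Another Per2 probe set differed by 4.02. Per3, its paralog, was 7.55, 7.57 and 7.54 by day and 9.08, 9.05, 8.94 and 8.70 at night. Its day arrays lay within a narrow range well below the night arrays, and the difference was 1.39 (SE 0.14, adjusted p = 1.76e-07). Cry2, a cryptochrome repressor, was 8.14, 8.32 and 8.15 by day and 9.18, 9.0, 8.97 and 8.80 at night, 1.72-fold higher (adjusted p = 2.17e-04).

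Cry1, the other cryptochrome, was 6.45, 5.83 and 6.54 by day and 7.10, 6.81, 6.66 and 7.04 at night (difference 0.63, SE 0.19, adjusted p = 0.037). Its groups did not overlap, but the gap was small, and the call ended without any of 5 arrays (ZT16 array 1, 2 or 4, ZT4 array 1 or 2; adjusted p 0.053 to 0.28). Per1 was 8.94, 8.78 and 9.67 by day and 9.51, 9.39, 9.42 and 10.0 at night, and ZT4 array 3 lay within the night range (difference 0.46, adjusted p = 0.25). Ciart (0.12), Bhlhe41 (0.13) and Bhlhe40 (-0.31), also repressors of the activators, did not pass.

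Of the 4 output factors, Tef, Dbp and Hlf were higher at night, against 3.43% of all genes. Tef was 8.46, 8.38 and 8.52 by day and 9.73, 9.71, 9.89 and 9.49 at night, 2.38-fold higher (difference 1.25, SE 0.12, adjusted p = 5.93e-08). Hlf was 9.45, 9.29 and 9.35 by day and 10.0, 10.1, 10.2 and 9.93 at night (difference 0.69, SE 0.09, adjusted p = 4.69e-06). Dbp was 6.86, 6.74 and 6.89 by day and 7.58, 7.68, 7.84 and 7.45 at night (difference 0.81, SE 0.18, adjusted p = 0.00502). In each of these the night arrays were all above the day arrays. Nfil3, which competes with these factors at the D-box, was 8.95, 8.95 and 8.69 by day and 8.54, 8.60, 7.94 and 9.01 at night, and did not pass (difference -0.34, adjusted p = 0.35).

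On the activator side, Npas2, a CLOCK paralog, was the 1 gene of 6 that passed. It was 8.69, 8.75 and 8.65 by day and 8.28, 8.28, 8.25 and 8.21 at night, a fall by 0.44 (SE 0.08, adjusted p = 8.62e-04). Arntl was 8.96, 8.48 and 9.33 by day and 8.23, 8.21, 8.29 and 8.94 at night. ZT16 array 4 reached into the day range and the other night arrays were below it; the difference of -0.50 (SE 0.31) did not pass (adjusted p = 0.38). A second Arntl probe set differed by -0.73 and passed on its own (adjusted p = 0.00188). Clock (-0.02), Arntl2 (-0.06), Nr1d2 (-0.05) and Rora (0.10) did not pass on the probe set used. Arntl2's other probe set differed by 0.68.

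**Figure D1:**
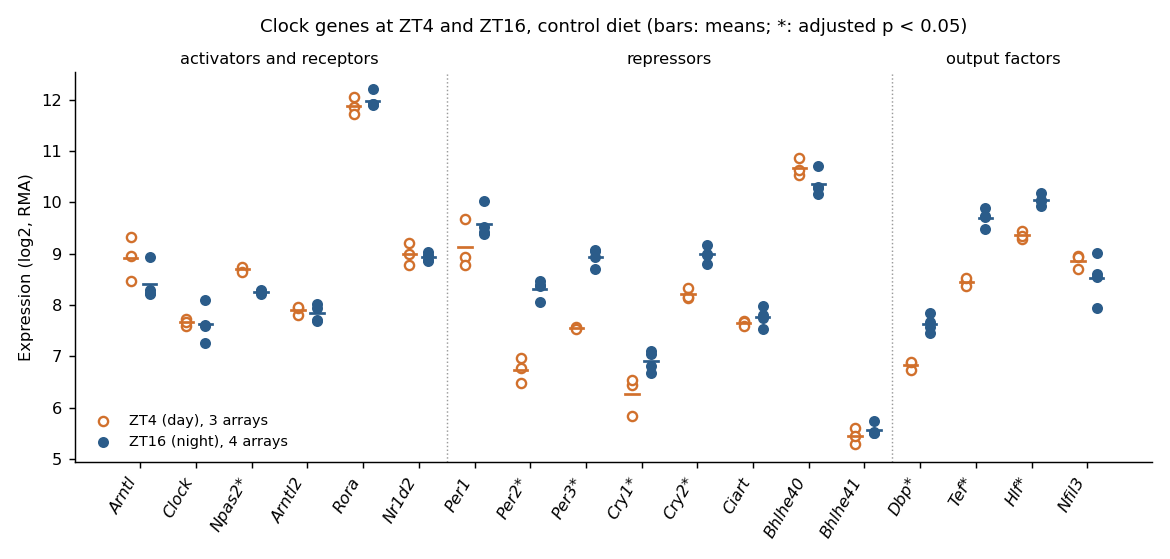
Log2 RMA expression of the 18 measured clock genes on each control diet array, 3 at ZT4 (open) and 4 at ZT16 (filled), with bars at group means and asterisks at adjusted p under 0.05. Per2, Per3, Cry2, Tef, Dbp and Hlf at ZT16 lie above every ZT4 array, and Npas2 below.

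Most measured DNA replication genes were higher at night. Of 25 measured genes of S phase and of origin licensing, the loading of replicative helicase in late mitosis and G1, 17 passed, all higher at ZT16, against 3.43% of all genes. All 25 differences were above 0, with a median of 0.71. Arrays of the 2 times did not overlap for 20 of them, against 9.65% of all genes in that direction. The count of called members was 14 to 17 when any single array was left out.

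Mcm2, a subunit of the replicative helicase, was 7.25, 6.81 and 6.93 by day and 8.45, 8.34, 8.53 and 8.47 at night. The night arrays were tightly grouped, all above the day arrays, and 2.74-fold higher (difference 1.45, SE 0.21, adjusted p = 5.05e-05). Mcm6, another subunit, was 7.60, 6.91 and 7.34 by day and 8.16, 8.73, 8.58 and 8.71 at night, 2.39-fold higher (adjusted p = 6.41e-04). Mcm5 and Mcm3 differed by 1.15 and 0.92 and Mcm4 by 0.72, and all 3 passed. Mcm7 was the exception among measured subunits, at 0.03. Cdc6, which loads the helicase, was 4.68, 4.38 and 4.59 by day and 5.15, 5.35, 5.14 and 5.20 at night (difference 0.66, adjusted p = 1.19e-04). Cdt1, its partner in loading, differed by 0.88 and passed.

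Among the members that act in DNA synthesis, several passed and some did not. Prim1, the primase subunit, was 8.50, 8.02 and 8.02 by day and 8.95, 8.95, 9.10 and 9.10 at night (difference 0.84, adjusted p = 0.00121). Pola1, the catalytic subunit of polymerase alpha, was 6.44, 6.49 and 6.55 by day and 7.21, 7.23, 6.98 and 7.43 at night (difference 0.72, adjusted p = 0.00136). Uhrf1, which carries DNA methylation through replication, was 8.69, 7.83 and 8.30 by day and 8.93, 9.27, 9.35 and 9.68 at night, 2.05-fold higher (adjusted p = 0.00173). Both subunits of ribonucleotide reductase, Rrm1 (0.53) and Rrm2 (0.71), and thymidylate synthase Tyms (0.53) passed. Pcna, the polymerase clamp, differed by 0.29 with no overlap and did not pass (adjusted p = 0.10), nor did Fen1, the flap endonuclease. The S phase cyclins Ccne1 (0.07) and Ccne2 (0.27) did not pass.

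Of 16 cyclins, inhibitors and other regulators of G1, the phase before replication, 3 passed and were higher at night, against 3.43% of all genes. In this list 7 members were above 0 and 9 below, with a median of -0.04. Without overlap, 5 were higher and 1 lower, against 9.65% and 8.19% of all genes. Ccnd1, cyclin D1, was 11.0, 10.8 and 11.0 by day and 11.5, 11.6, 11.7 and 11.6 at night, 1.60-fold higher (adjusted p = 0.00234). Ccnd2 and the replication gene activator E2f1 each differed by 0.50 (adjusted p = 0.00663 and 0.00252). These 3 stayed called without any single array. The inhibitors Cdkn1a (-0.09), Cdkn1b (-0.02) and Cdkn2a (-0.08) did not pass.

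The mitotic genes that passed went the other way. Of 24 measured, 5 passed, all lower at night, against 2.85% of all genes, and the median was -0.34. Cenpf, a kinetochore protein, was 8.54, 7.95 and 8.67 by day and 7.00, 7.34, 6.95 and 7.13 at night, 2.44-fold lower (adjusted p = 0.00145); its other probe sets differed by -0.86 and -0.07. Cdc20, which activates the anaphase-promoting complex, was 8.73, 8.04 and 8.41 by day and 7.47, 7.33, 7.36 and 7.77 at night (difference -0.91, SE 0.18, adjusted p = 0.00206). Ccnb2, a mitotic cyclin, was 7.54, 7.10 and 7.56 by day and 6.43, 6.43, 6.63 and 6.78 at night (difference -0.83, SE 0.17, adjusted p = 0.00197). In all 3 the groups did not overlap, and they stayed called without any single array.

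The other mitotic calls, of the mitotic kinase Plk1 (-0.51) and the ubiquitin-conjugating enzyme Ube2c (-0.64), were less firm. Plk1's ended without any of 4 arrays (ZT16 array 1 or 3, ZT4 array 1 or 3; adjusted p 0.060 to 0.17). Ube2c's ended without any of 6 arrays, all but ZT16 array 2 (0.068 to 0.19). The list's count was 3 without ZT16 array 1, ZT4 array 1 or ZT4 array 3. Without ZT16 array 3 it was 4, since another member passed there. With the mean of each gene's probe sets in place of the brightest, it was 8, all lower. Cdk1 (0.08), Top2a (0.23), Bub1 (0.11), Kif20a (0.03) and Bora (0.21) had differences above 0 and did not pass. Mki67, the common marker of cycling cells, was 9.18, 8.40 and 9.04 by day and 8.58, 8.73, 8.41 and 8.47 at night, so that its groups overlapped (adjusted p = 0.19). Cdkn3, a phosphatase of cyclin-dependent kinases that was not on the list, was among the largest falls: 8.06, 7.54 and 7.57 by day against 5.48, 5.47, 6.02 and 5.23 at night, 4.52-fold lower (adjusted p = 4.59e-04). In RNA from a pool of cells, fewer cells in a phase and less RNA per cell cannot be told apart.

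**Figure D2:**
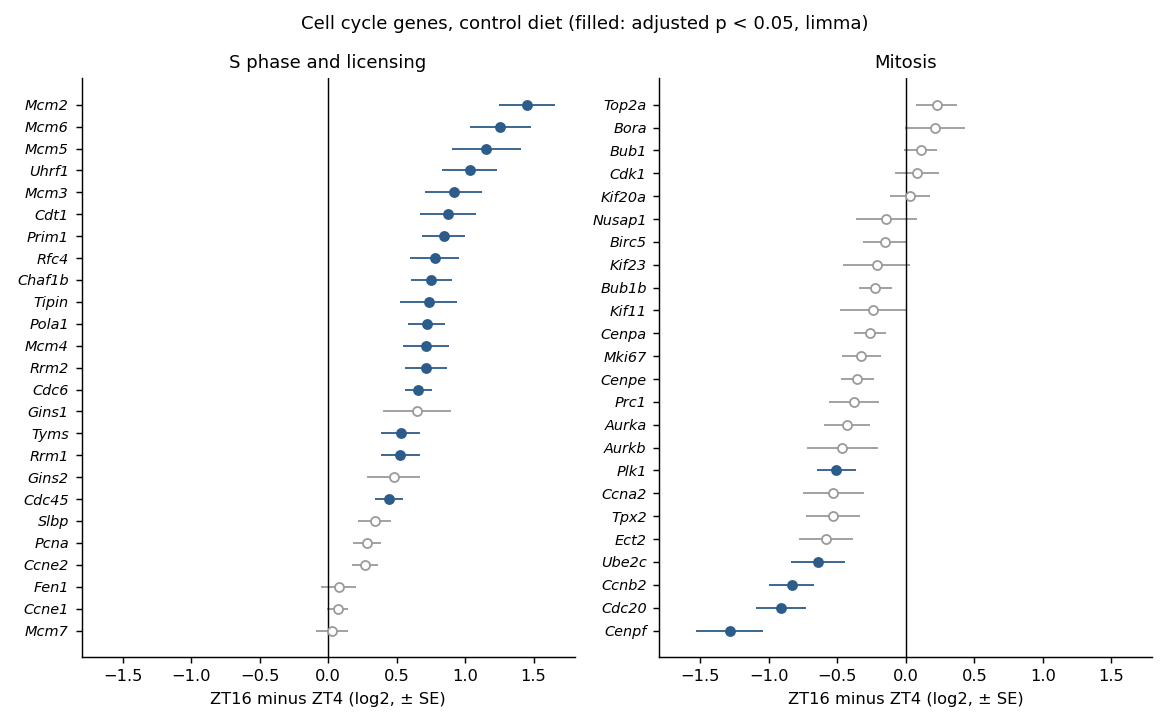
Difference ZT16 minus ZT4 on the log2 scale in control diet, with standard errors, for the 25 measured S phase and licensing genes (left) and 24 measured mitosis genes (right); filled points passed at adjusted p under 0.05. On the left 17 genes passed and all points lie above 0, and on the right 5 passed, all below 0.

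The largest rises beside these genes came from varied functions. Efemp1, an extracellular matrix glycoprotein, was 6.91, 7.05 and 6.92 by day and 8.51, 8.24, 8.94 and 8.51 at night, the largest rise by the naming rule at 3.01-fold (adjusted p = 0.00176). Adarb1, an RNA-editing adenosine deaminase, was 7.03, 7.88 and 7.55 by day and 8.75, 8.81, 9.10 and 9.12 at night (2.75-fold), and its other probe sets differed by 0.23. Atad2, a chromatin-bound ATPase, rose 2.56-fold; its other probe sets differed by 0.14 and 0.32. Pdxk, pyridoxal kinase, rose 2.32-fold and was nearly level within each time, at 8.32, 8.00 and 7.95 by day and 9.21, 9.35, 9.30 and 9.35 at night. Wfs1, an endoplasmic reticulum membrane protein (2.47-fold), the transcription factor Rfx2 (2.41-fold) and the spindle checkpoint ATPase Trip13 (2.27-fold) also rose, though Trip13's other probe sets differed by -0.01 and 0.04. Usp18, a protease of the interferon response, rose 2.30-fold and was the 1 called gene of 11 in the interferon list. The hormone gene Pyy (2.23-fold, adjusted p = 0.044) lost its call without any of 6 arrays, all but ZT4 array 2 (0.052 to 0.17).

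Among the largest falls, Nipal1, of a family of magnesium transporters, was 9.23, 8.13 and 9.09 by day and 6.66, 5.87, 5.58 and 7.36 at night, 5.46-fold lower (difference -2.45, SE 0.46, adjusted p = 0.00129). Pde4b, a cyclic AMP phosphodiesterase, was 9.64, 9.38 and 9.73 by day and 7.54, 7.77, 7.57 and 7.89 at night, 3.71-fold lower (adjusted p = 5.28e-06), and its other probe sets differed by -1.55 and -0.02. Cpe, carboxypeptidase E, was 9.71, 9.66 and 9.84 by day and 8.34, 8.31, 8.03 and 8.17 at night, 2.88-fold lower (adjusted p = 5.97e-08). In these 3 each night array was below each day array, by a wide margin for Pde4b and Cpe. For Nipal1 the gap, from 8.13 to 7.36, was smaller than the spread within either time.

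The epithelial transcription factor Ehf (-1.66), the tight junction protein Cldn4 (-1.66), the sorting receptor Sorcs2 (-1.65) and the secreted protein Crispld2 (-1.87) fell as well, and stayed called without any single array. Ehf's other probe sets differed by -1.90 to -0.16. Phlda1 (-1.59) was no longer called without ZT4 array 3 (adjusted p = 0.064). Ifi202b (-1.52), an interferon-inducible gene, was not called without ZT16 array 3 or ZT4 array 3 (0.051 and 0.075). Zc3h12c (-1.60), an RNA-binding protein of a family that degrades inflammatory messages, lost its call without any of 5 arrays (ZT16 array 1, 2 or 3, ZT4 array 2 or 3; 0.055 to 0.11), and its other probe set differed by -0.10.

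Some keratinocyte genes of stress and of late differentiation were lower at night. Of 11 basal genes none passed, against 6.28% of all genes called in either direction. Of these 11, 8 were above 0. Without overlap, 4 were higher and none lower at night, against 9.65% and 8.19% of all genes. Of 9 measured stress genes, those induced in wounded or hyperproliferative epidermis, 4 passed, all lower, against 2.85% of all genes, with a median of -0.73. Krt16 was 10.2, 9.84 and 10.3 by day and 7.94, 8.11, 7.67 and 8.61 at night, 4.11-fold lower (adjusted p = 0.00197). Krt6a, its partner keratin, was 8.35, 9.32 and 8.88 by day and 6.63, 7.32, 6.89 and 7.11 at night, 3.62-fold lower (adjusted p = 0.0126). Sprr1a, a cornified envelope precursor, was 11.4, 11.3 and 11.5 by day and 9.26, 9.75, 9.36 and 9.98 at night, 3.53-fold lower (adjusted p = 0.00179). Day and night did not overlap for these 3. Sprr1b differed by -0.73. Without ZT4 array 2 only Krt16 and Sprr1a stayed called, with Krt6a at adjusted p = 0.076 and Sprr1b at 0.058, and across single arrays left out the list median ran from -0.89 to -0.27. The alarmins S100a8 (-0.04) and S100a9 (0.10) did not pass.

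Of 18 measured suprabasal genes, which mark cells that have left the basal layer, 4 passed, all lower, against 2.85% of all genes, with a median of -0.15 (-0.23 without ZT4 array 1). Ovol1, a transcription factor of keratinocyte differentiation, was 10.3, 9.99 and 10.3 by day and 9.05, 9.35, 9.04 and 9.69 at night (difference -0.89, SE 0.19, adjusted p = 0.00422). Krtdap (-0.65), Calm4 (-0.63) and Sbsn (-0.37), secreted or calcium-binding products of differentiating cells, passed in all arrays. Without ZT4 array 1 only Ovol1 stayed called (Krtdap 0.054, Calm4 0.077), and Sbsn was lost without each of the 7 arrays in turn (0.052 to 0.12) and with the mean of its probe sets (0.073). The mean level of the whole list was 9.18 to 9.20 on the day arrays and 8.86 to 9.10 on the night arrays, so it did not overlap. The mean of the basal list was 11.6 to 11.7 by day and 11.6 to 11.8 at night, with overlap. Whether a different share of suprabasal cells has a part in other results was not tested.

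Few markers of other cell types passed, against 6.28% of all genes, 3.43% higher and 2.85% lower at night. A single call in a list of 11 or 13 genes is close to that share. No gene passed in the lists for melanocytes, endothelium, mast cells, adipocytes, muscle, nerve, erythrocytes, hair shaft or sebaceous gland. Thy1, a surface glycoprotein of T cells that dendritic epidermal T cells also carry, was 9.26, 9.04 and 9.55 by day and 7.77, 7.48, 7.58 and 7.99 at night, 2.98-fold lower (adjusted p = 0.00145). It was the 1 called gene of 7 in the T cell list. Cd3e was 6.47, 6.04 and 6.18 by day and 5.36, 5.61, 5.87 and 6.00 at night, without overlap, and did not pass (adjusted p = 0.084). Cd3g differed by -0.16 and Cd3d by 0.05. The mean of the T cell list was 6.32 to 6.41 by day and 6.04 to 6.25 at night. Its median difference was -0.03, with 3 members above 0 and 4 below. Without overlap, 2 members were higher and 2 lower at night, against 9.65% and 8.19% of all genes. Of 13 leukocyte and Langerhans cell genes Epcam alone passed, at 10.5, 10.5 and 10.4 by day and 9.66, 9.87, 9.53 and 9.80 at night (difference -0.74, adjusted p = 4.59e-04). Epcam is also made by epithelial cells, and the Langerhans cell lectin Cd207 differed by -0.23 (adjusted p = 0.32). Lgr5 (-0.83), a marker of cycling hair follicle stem cells, was the 1 called gene of 13 in the bulge list and lost its call without any of 6 arrays, all but ZT16 array 2 (0.062 to 0.13). Of these 13 genes 10 were below 0, with a median of -0.20. Without overlap, 5 were lower and 1 higher at night, against 8.19% and 9.65% of all genes. The mean of the bulge list was 8.30 to 8.33 by day and 8.01 to 8.21 at night, without overlap. The matrix gene Dpt (0.23), the 1 called gene of 11 in the fibroblast list, lost its call without any of 4 arrays (ZT16 array 1 and each ZT4 array, 0.060 to 0.19).

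In cholesterol synthesis and uptake, every called gene was lower at night. All 17 measured members had differences below 0, with a median of -0.49. Of these, 5 passed, against 2.85% of all genes, and 8 were without overlap, against 8.19% of all genes in that direction. Fdft1, squalene synthase, was 8.43, 8.52 and 8.38 by day and 8.01, 7.75, 7.81 and 8.04 at night (difference -0.54, SE 0.11, adjusted p = 0.00280). It was the 1 member called without any single array. Sqle, squalene epoxidase, was 8.91, 8.17 and 8.91 by day and 6.96, 7.55, 7.40 and 7.46 at night, 2.49-fold lower, with a wide day spread (adjusted p = 0.0105). Insig1, which holds the pathway's activator in the endoplasmic reticulum, was 9.07, 8.81 and 9.37 by day and 8.16, 8.36, 7.83 and 8.80 at night (difference -0.79, adjusted p = 0.040). Mvk (-0.38) and Hsd17b7 (-0.53), enzymes of the pathway, also passed, though Mvk's other probe set differed by -0.01 and the mean of both did not pass (adjusted p = 0.22). The pathway's calls rested on few arrays. Their count fell to 1 without ZT4 array 1 (Sqle at adjusted p = 0.070). It was 2 without ZT16 array 1, ZT16 array 2 or ZT4 array 3 (Sqle at 0.059), and 3 without ZT16 array 3. Insig1 and Hsd17b7 lost their calls without any of ZT16 array 1, 2 or 3 and ZT4 array 1 or 3 (0.060 to 0.18), and Mvk without ZT16 array 1 or 2 or ZT4 array 1 or 2 (0.056 to 0.16). The list median was -0.57 to -0.42 when any single array was left out, and -0.20 with the mean of each gene's probe sets. Hmgcs1 (-0.02) and Dhcr7 (-0.03) were nearly level.

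Fatty acid handling changed in a few genes. Of 12 targets and receptors of the PPAR lipid sensors, 4 were lower and 1 higher at night, against 2.85% and 3.43% of all genes. Angptl4, an inhibitor of lipoprotein lipase, was 8.43, 8.44 and 8.24 by day and 7.52, 7.60, 7.64 and 7.49 at night (difference -0.81, SE 0.14, adjusted p = 7.14e-04), while its other probe set differed by -0.06. Ppara, itself a receptor of this family, was higher at night: 8.44, 8.57 and 8.41 by day against 9.44, 8.99, 9.37 and 9.26 (difference 0.79, SE 0.17, adjusted p = 0.00310). The thioesterase Acot1 (-0.79) stayed called without any single array, and the fatty acid carrier Fabp5 (-0.98) was not called without ZT4 array 1 (0.073). Pdk4 (-0.44), a kinase that shuts off pyruvate oxidation, overlapped between times and lost its call without any of 6 arrays, all but ZT4 array 3 (0.053 to 0.29). Without ZT4 array 1 the list held 2 lower calls. Of 17 genes of fatty acid oxidation, Acadl (-0.41), Hadhb (-0.40) and Etfdh (-0.60) were lower, against 2.85% of all genes. Other probe sets of Acadl and Hadhb differed by 0.07 and 0.06, and with the mean of the probe sets neither passed (0.098 and 0.33). Without ZT4 array 1, Acadl alone was called (Hadhb 0.052), and Etfdh was also lost without ZT4 array 2 or ZT16 array 1, 2 or 3 (0.056 to 0.16). No gene passed among 26 of oxidative phosphorylation, 12 of glycolysis and 15 of fatty acid synthesis.

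**Figure D3:**
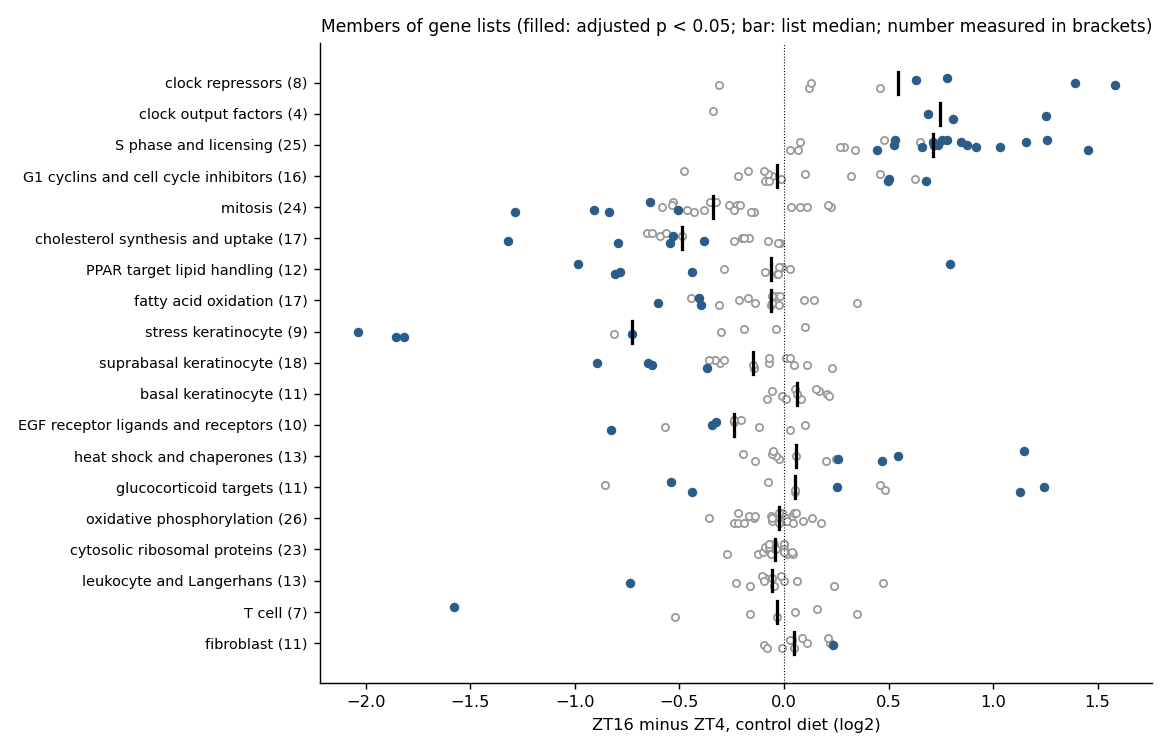
Difference ZT16 minus ZT4 on the log2 scale in control diet for the members of 19 gene lists, 1 point per gene (filled at adjusted p under 0.05), with a bar at each list's median. S phase genes lie above 0 and cholesterol genes below 0, while basal keratinocyte, oxidative phosphorylation and ribosomal protein genes lie near 0 with no filled point.

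Chaperones of the heat shock response were higher at night in 4 of 13 measured genes, against 3.43% of all genes, and none was lower. Hsph1, a nucleotide exchange factor of Hsp70, was 9.47, 9.30 and 9.24 by day and 10.4, 10.8, 10.4 and 10.4 at night, 2.22-fold higher (adjusted p = 1.12e-06). Ahsa1, which activates the ATPase of Hsp90, was 8.00, 7.89 and 8.01 by day and 8.55, 8.48, 8.56 and 8.46 at night (difference 0.54, adjusted p = 7.14e-04), and its other probe set differed by -0.05. Chordc1, an Hsp90 cochaperone (0.47), and Hspa4, a relative of Hsph1 (0.26), also rose, though Hspa4's other probe sets differed by -0.04 and 0.06 and the mean of all its sets did not pass (adjusted p = 0.47). The 4 stayed called without any single array. The abundant Hspa8 (0.06), Hsp90aa1 (-0.20) and Dnajb1 (-0.06) did not pass.

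In the unfolded protein response of the endoplasmic reticulum, 1 of 16 genes was higher and 2 lower, against 3.43% and 2.85% of all genes, and a single call among 16 is close to the share over all genes. Creld2, a secreted stress protein of that compartment, was 9.94, 9.81 and 9.71 by day and 10.5, 10.6, 10.4 and 10.3 at night (difference 0.65, SE 0.11, adjusted p = 4.23e-04). Dnajb9 (-0.73) was not called without ZT16 array 3 (0.071) or ZT4 array 1 (0.051). The stress transcription factor Atf4 (-0.49) was not called without ZT16 array 1 or 3 or ZT4 array 1 or 3 (0.070 to 0.088).

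Glucocorticoids peak at the start of the active phase in mice, and of 11 of their targets 3 were higher and 2 lower at ZT16, against 3.43% and 2.85% of all genes. The targets did not move together: 7 were above 0 and 4 below, from -0.85 to 1.24, with a median of 0.05. Tsc22d3, an anti-inflammatory leucine zipper protein, was 7.11, 7.01 and 7.22 by day and 8.07, 7.91, 8.63 and 8.80 at night, 2.36-fold higher (adjusted p = 5.40e-04). Fkbp5, a cochaperone of the receptor, was 7.20, 7.18 and 7.00 by day and 7.64, 7.56, 9.13 and 8.69 at night (difference 1.13, SE 0.30, adjusted p = 0.020). Its night arrays fell into a low and a high pair, and the same arrays, 3 and 4, were the higher ones for Tsc22d3. Fkbp5 lost its call without any of 5 arrays (ZT16 array 3 or 4, each ZT4 array; 0.055 to 0.10), and its other probe sets differed by 0.10 and 0.49. The call of metallothionein Mt1 (0.25) ended without any of 6 arrays, all but ZT16 array 2 (0.083 to 0.13). Sgk1, a kinase, fell by 0.54, at 10.8, 10.9 and 10.9 by day and 10.2, 10.5, 9.95 and 10.6 at night (adjusted p = 0.00459). Higher calls in the list numbered 1 without ZT16 array 3 or 4 or any ZT4 array, and 2 without ZT16 array 1.

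Several signalling genes of keratinocytes were lower at night. Rel, an NF-kB subunit, was 8.64, 8.72 and 8.61 by day and 7.64, 7.80, 7.21 and 7.87 at night, 2.04-fold lower (adjusted p = 3.10e-04). It stayed called without any single array, and Il1a (-0.17) and Nfkbia (-0.24), the other calls among 16 genes of that pathway, did not (2.85% of all genes were called lower). Il1a was lost without ZT16 array 2, 3 or 4 or ZT4 array 2 (0.051 to 0.27), and Nfkbia without any array but ZT16 array 4 (0.054 to 0.19). Without ZT16 array 2 or 3 or ZT4 array 2, Rel was the 1 call. Of 10 ligands and receptors of the EGF family, 3 were lower, against 2.85% of all genes. Tgfa, a keratinocyte growth factor, was 8.66, 8.43 and 8.69 by day and 7.59, 7.90, 7.67 and 7.90 at night (difference -0.83, SE 0.21, adjusted p = 0.0126), with other probe sets at -0.51 and -0.04. Erbb3, a receptor of the family (-0.35), and its ligand Nrg1 (-0.32) were the others. Without ZT4 array 1, Nrg1 alone was called (Tgfa 0.061, Erbb3 0.063), and without ZT4 array 3 Erbb3 alone (Tgfa 0.058, Nrg1 0.12). Bmp2, a ligand that holds back follicle growth, was 9.63, 9.57 and 9.79 by day and 8.32, 9.01, 8.59 and 9.27 at night (difference -0.86, SE 0.21, adjusted p = 0.0124). It lost its call without ZT16 array 1 (0.065) or ZT4 array 3 (0.061). Notch1 was higher by 0.30 (adjusted p = 0.00767), except without ZT4 array 2 (0.093). No gene of 21 in the Wnt list passed.

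Single genes of other lists also passed, where 3.43% of all genes were called higher and 2.85% lower. Of 8 measured genes of the aryl hydrocarbon receptor list, 1 was higher and 3 lower at night. Of 20 antioxidant genes, 1 was higher and 1 lower. Aldh3a1, an aldehyde dehydrogenase induced through the aryl hydrocarbon receptor, was higher at night by 0.50 (adjusted p = 0.00230), while Nqo1, a quinone reductase also on that list, was lower at 6.29, 6.28 and 6.43 by day and 5.97, 5.65, 5.78 and 5.79 at night (adjusted p = 0.00271). Sod2, the mitochondrial superoxide dismutase, was higher, at 10.0, 10.2 and 9.79 by day and 10.5, 10.6, 10.5 and 10.3 at night (adjusted p = 0.00135). Adm, a vasodilator peptide induced by low oxygen, was 7.71, 7.66 and 8.20 by day and 6.79, 6.83, 6.52 and 7.58 at night (difference -0.93, adjusted p = 0.00233). All 4 stayed called without any single array. Ddb2, which finds ultraviolet damage, differed by 0.50 and was the 1 called gene of 11 in nucleotide excision repair, except without ZT4 array 2 (0.067). Among 24 proteasome, 23 ribosomal protein and 18 collagen and basement membrane genes none passed.

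The 20 control diet arrays of all 6 times show where ZT4 and ZT16 lie in the day of each gene. These are means, and no time other than ZT4 and ZT16 was tested here. Means at ZT8 rest on 2 arrays, against 3 or 4 at the other times. Per2 averaged 6.47 at ZT0, 6.74 at ZT4, 6.76 at ZT8, 8.48 at ZT12, 8.32 at ZT16 and 7.28 at ZT20, so ZT16 lay just after its highest time. Tef was highest at ZT12 (10.1), as were Cry2 (9.5) and Dbp (8.64), and Cry1 at ZT20 (7.32). Arntl was lowest at ZT12 (6.94) and highest at ZT0 (9.17), so that neither ZT4 (8.92) nor ZT16 (8.42) was an extreme. Mcm2 was highest at ZT16 (8.45) and lowest at ZT8 (6.26). Cenpf ran from 8.70 at ZT0 down to 6.46 at ZT12, with ZT4 (8.39) near the top and ZT16 (7.10) on the way up. Sqle was higher still at ZT8 (9.05) than at ZT4 (8.66).

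Some large falls did not follow a single rise and fall over the day. Pde4b was near 7.60 to 7.69 at ZT0, ZT8, ZT12 and ZT16 but 9.58 at ZT4 and 9.42 at ZT20. Krt16 was likewise high at ZT4 (10.1) and ZT20 (9.38) and 7.14 to 8.08 at the other times. Nipal1 was high at ZT4 (8.82), ZT8 (9.46) and ZT20 (9.13) and low at ZT0 (6.35) and ZT16 (6.37). Each time was collected on days of its own, which cannot be told apart from time.

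**Figure D4:**
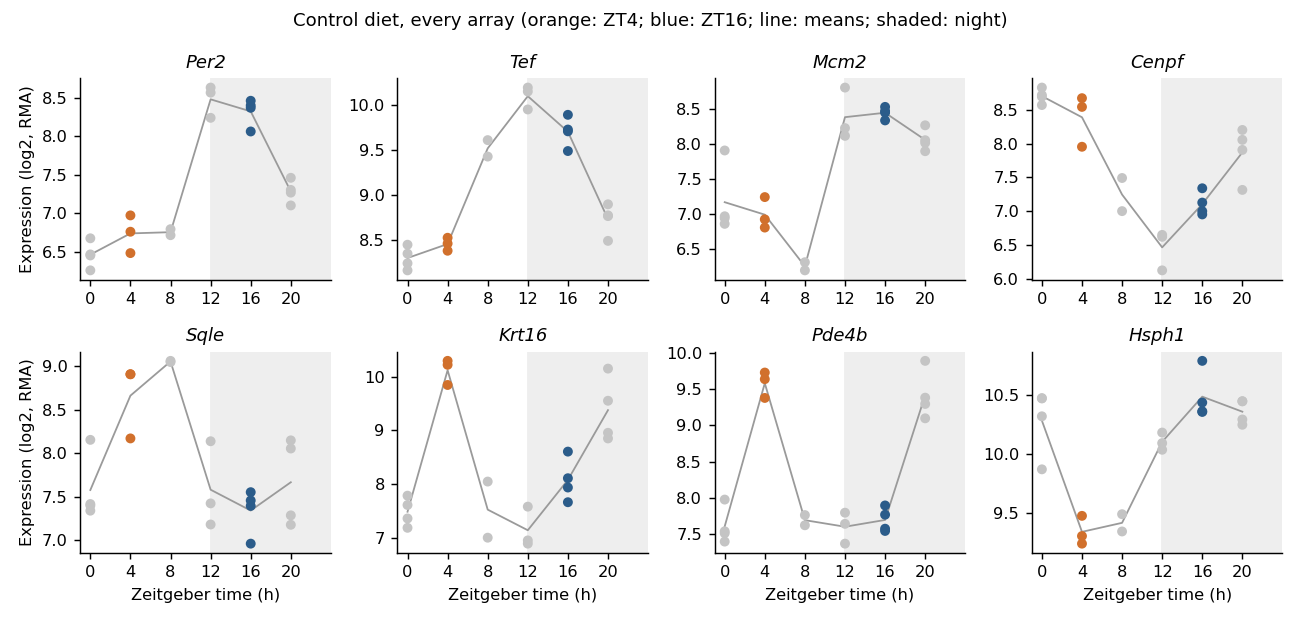
Log2 RMA expression of 8 genes over zeitgeber time on the 20 control diet arrays, 1 point per array (ZT4 orange, ZT16 blue, other times grey), with a line through the means and shading for night. Per2, Tef and Mcm2 rise towards ZT12 to ZT16, while Krt16 and Pde4b are high at both ZT4 and ZT20 and low between and at ZT0.

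The same times were compared in mice on the high fat diet, in 8 other arrays of the same strain, sex, age and feeding time, 4 per time. No source used here says whether both diets were collected on 1 day, so this is not known to be a separate collection. In that diet 706 genes passed (4.13%). Of the 1074 genes called in control diet, 845 (78.7%) had the same sign there, against 58.1% of all genes. Of them 205 passed there in the same direction, which is 19.1% of the control calls and 29.04% of the high fat calls, and 7 passed in the opposite direction. Per2 (1.76), Tef (1.08), Cry2 (0.93), Per3 (1.04) and Hlf (0.56) passed in high fat diet too. So did 11 of 25 S phase genes, including Mcm2 (0.89), against 2.41% of all genes called higher there. Dbp (0.48) did not pass there, and Npas2, lower at night in control diet, differed by -0.07. Sqle (-1.48), Insig1 (-1.0), Fdft1 (-0.49) and Mvk (-0.39) were lower at night in high fat diet as well, each past the test. Cdc20 (-0.67), Ccnb2 (-0.60) and Cdkn3 (-1.18) also passed there.

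A test of the difference between the diets, the high fat change minus the control change, passed for 81 genes (0.474%), 44 with a higher and 37 with a lower value in high fat diet. With the median of all probe sets subtracted the split was 51 and 23. Of the 81, 69 had opposite signs in the 2 diets, while 58.1% of all genes had the same sign. The 81 were selected for a large difference between diets, which by itself favours opposite signs. Opposite signs also include genes near 0 in 1 diet, such as Hsp90b1. Heat shock genes were among the 81. Hsph1 rose by 1.15 in control diet and differed by 0.09 in high fat diet, a difference between diets of -1.06 (SE 0.18, adjusted p = 0.00337). Hspa4 (-0.40) and Hspa1b (-0.68) also differed between diets, and their values at night in high fat diet were below those of day (-0.15 and -0.48). With the mean of the probe sets, Hspa4's difference between diets was -0.11 and did not pass (adjusted p = 0.64), while Hspa1b's was -0.39 and passed. Creld2 rose by 0.65 in control diet and fell by 0.41 in high fat diet (difference between diets -1.06, adjusted p = 6.51e-04). Hsp90b1, another endoplasmic reticulum chaperone, was level in control diet (0.00) and fell by 0.49 in high fat diet (adjusted p = 0.014 for the difference).

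Cpe fell by 1.53 in control diet and differed by -0.30 in high fat diet (difference between diets 1.23, adjusted p = 0.00276). Crispld2 went from -1.87 to 0.34 and Krt6a from -1.86 to 1.12 (differences between diets of 2.20 and 2.97, adjusted p = 0.012 and 0.022). Krt6a's diet difference was not called without ZT16 array 1 or ZT4 array 2 of control diet, or ZT4 array 1 of high fat diet (adjusted p 0.050 to 0.083), and with the mean of its probe sets it was 1.64 and was not called (adjusted p = 0.052). Ciart, the clock repressor that did not pass in control diet, rose by 0.86 in high fat diet, a difference of 0.74 (adjusted p = 0.013). Tsc22d3 rose by 2.48 in high fat diet against 1.24 (adjusted p = 0.040 for the difference), a call that ended without any of 11 of the 15 arrays (0.051 to 0.10), all but ZT16 array 3 and 4 of either diet. The count of 81 ranged from 29 to 106 when any of the 15 arrays was left out, and was lowest without ZT4 array 2 of control diet. It was 42 and 49 without ZT16 array 1 and 3 and 48 without ZT4 array 1 of control diet, and 46 and 47 without ZT4 array 1 and 2 of high fat diet.

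**Figure D5:**
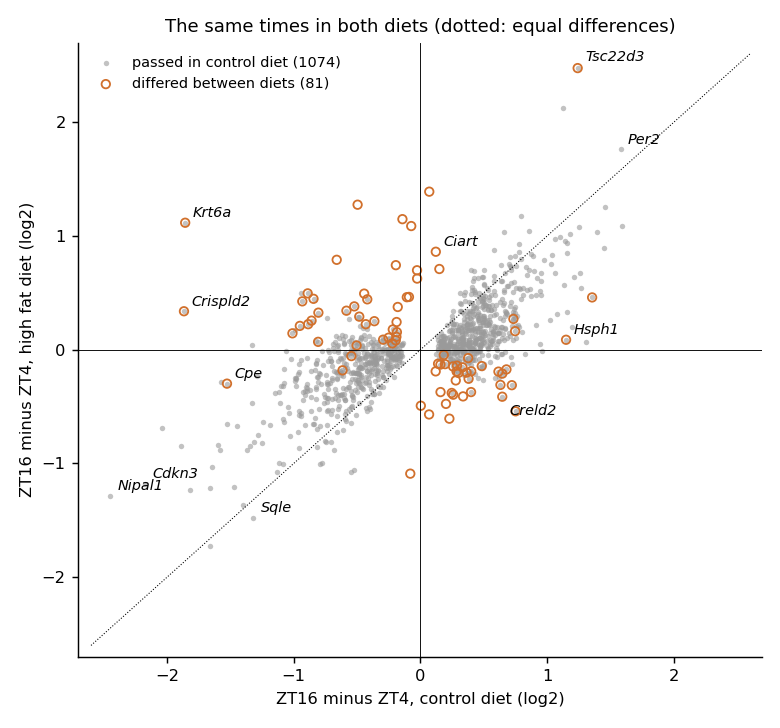
Difference ZT16 minus ZT4 in control diet (x axis) and in high fat diet (y axis), both log2, for the 1074 genes called in control diet (grey) and the 81 genes whose differences differed between diets (rings), with equal differences on the dotted line. Per2 and Sqle lie near that line, while Krt6a and Crispld2 lie on opposite sides of 0 in the 2 diets.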

How the data were processed

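Expression in mouse epidermal stem cells was measured on microarrays with biotin label, per the labels' protocols. The deposited values are on the log2 scale, and per the submitters' processing notes the authors used RMA, which corrects background, normalizes arrays against each other and summarises the probes of a set. Its version is not given in the sources used here, and the log2 scale rests on a value range of 2.17 to 13.5. Of 45141 probe sets, 28898 had 1 gene in the platform annotation, 551 had several and 15692 none, and the last 2 kinds were not used. The probe set with the highest mean stood for each of 7180 genes with more than 1. Of 17097 symbols, 17055 are in the reference gene table.

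A mean for each of 12 groups was fitted to all 41 arrays with limma 3.58.1 in R 4.3.3 (29 residual and 2.63 prior degrees of freedom), with Benjamini-Hochberg adjustment over all genes and a threshold of 0.05. In data simulated on these genes, 76% of 100 genes changed 1.5-fold and 98% of 100 changed 2-fold were recovered in the control diet comparison, and 11 of 185 calls were false. The simulated noise was normal and independent between genes, with no deviation shared by the genes of an array. These rates may therefore not hold for the calls on the real arrays. The rule for named genes took the 15 largest rises and 15 largest falls past the threshold without overlap (predicted and clone-named genes passed over), the measured genes of 3 clock lists, and at most 6 genes from any other list, lowest unadjusted p first; other genes are named as examples of a list or a check, chosen after their values were seen. The members and the 50 gene lists, with 617 measured genes, were chosen with earlier results of these data known, so lists are described by counts and medians beside all genes. Motifs were searched in RefSeq promoter windows. Alternatives covered the probe set rule, a filter on dim genes, the prior, array weights, centring, a residual component, a replicate block, the arrays in the fit and leaving out each array. The number of arrays limits the precision. Tables were handled with pandas 2.3.3 and figures drawn with matplotlib 3.10.9 in Python 3.11.15.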

Additional observations from a re-analysis of the deposited data

Results flagged for a closer look

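In 6 of 118 tests on the 4 night arrays of control diet, 1 array lay so far from the other 3 that the gap, divided by the range, was above Dixon's 95% critical value. Chance flags about 5% of such groups. ZT16 array 4 was the outlying array in 5 of them: Zc3h12c at 7.60 (median of the others 6.74), Arntl at 8.94 (8.23), Rora, a nuclear receptor that activates Arntl, at 12.2 (11.9), the RNA-binding protein Hnrnpk at 10.9 (10.6), and the second principal component of the 7 arrays at 18.3 (-2.92). ZT16 array 2 was the outlying array for Bhlhe41, at 5.73 (5.51). Zc3h12c and Hnrnpk were lower at night in spite of the high array.

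The change from ZT4 to ZT16 differed between the diets, by the contrast of the 2 changes in limma, for 14 genes named here. Values are high fat change minus control change on the log2 scale. It was below 0 for Hsph1 (-1.06), Creld2 (-1.06), Atad2 (-0.90), Hspa1b (-0.68), Notch1 (-0.50), Hsp90b1 (-0.50), Srsf10, a splicing factor (-0.45), and Hspa4 (-0.40). It was above 0 for Krt6a (2.97), Crispld2 (2.20), Tsc22d3 (1.24), Cpe (1.23), Angptl4 (0.88) and Ciart (0.74). The adjusted p ran from 6.51e-04 for Creld2 to 0.042 for Atad2. With the mean of the probe sets, those of Atad2 (-0.38), Angptl4 (0.36) and Srsf10 (-0.16) were not called (0.24, 0.15 and 0.62), nor were those of Krt6a and Hspa4 as given with their values. Of the 14, Cpe, Creld2, Hspa1b and Hsph1 passed under each of 26 alternatives. Leaving out single arrays ended the calls of Notch1 (ZT4 array 2 of control diet, adjusted p = 0.058), Angptl4 (any of 7 arrays: ZT16 array 1 and ZT4 array 1 and 2 of control diet, ZT16 array 1 and 4 and ZT4 array 1 and 3 of high fat diet; 0.050 to 0.084), Srsf10 (any of 9 arrays: ZT16 array 1 and 2 and each ZT4 array of control diet, ZT16 array 2 and ZT4 array 1, 2 and 3 of high fat diet; 0.050 to 0.083) and Atad2 (any of 10 arrays: ZT16 array 1, 2 and 3 and ZT4 array 2 and 3 of control diet, ZT16 array 1 and 4 and ZT4 array 1, 2 and 4 of high fat diet; 0.059 to 0.15), beside Krt6a and Tsc22d3 as given with their values. Called differences were 81 of 17097 in all, and 2195 genes had an unadjusted p under 0.05.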

How the results depend on the processing

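The count of 1074 genes called in control diet was 957 to 1593 under 12 other settings. The 1593 are probe sets, of 28898 each tested on its own. The largest count of genes was 1356, with the first residual component as covariate. The count was 633 with only the arrays of the groups compared, which leaves few degrees of freedom. Leaving out single arrays gave 505 to 1112. The 706 calls of high fat diet became 1159 with every probe set tested on its own and 255 with only the arrays of the groups compared, and 394 to 673 with single arrays left out. The 81 differences between diets became 140 with every probe set on its own, 170 with array weights, 167 with the first residual component as covariate and 31 with only the arrays of the groups compared, and 29 to 106 with single arrays left out. The cause of these moves was not tested.

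Replicate numbers did not pair the samples: deviations of same-numbered ZT4 and ZT16 arrays correlated at -0.09, 0.12 and -0.13. With the replicate block 957, 609 and 58 genes were called. Of 105 called genes named by the rule, 53 were called in each of 19 alternatives; 27 lost their call with only the arrays of the groups compared, 12 with the replicate block and 7 with the mean of probe sets. Signs turned for uncalled genes near 0 and for Pes1: with the mean of probe sets, Clock was at 0.15, Arntl2 at 0.31, Nr1d2 at 0.015 and Pes1, a ribosome biogenesis gene called at 0.39, at -0.037. With single arrays left out Clock ran from -0.18 to 0.10 and Nr1d2 from -0.16 to 0.051. Signal over background is unknown here, so calls of dim probe sets such as Cdc6, Nrg1 and Il1a may be limited by it.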

Other observations

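Among all genes, 3.43% were called higher and 2.85% lower at night. Of 12 autophagy genes Gabarapl1 (-0.42), which coats autophagosomes, and Atg7 (-0.47), the enzyme that starts this coating, were lower at night; Atg7 lost its call without ZT16 array 1 or ZT4 array 2 or 3 (adjusted p 0.061 to 0.13), and with the mean of its probe sets (0.080); its other probe sets differed by -0.18 to 0.09. Of 15 splicing factors Srsf10 was higher, at 10.3, 10.3 and 10.4 by day and 10.7, 10.8, 10.7 and 10.7 at night (adjusted p = 0.00201), though with the mean of its probe sets it did not pass (0.074). Hnrnpk (-0.34) and Hnrnpa1 (-0.24), which bind nuclear RNA, were lower, and Hnrnpa1 was not called without ZT16 array 1 or ZT4 array 1 (0.051 and 0.083). Of 19 ribosome biogenesis genes Bop1 (0.33) and Pes1 (0.39), partners in 1 complex, were higher. Bop1 lost its call without each of the 7 arrays in turn (0.059 to 0.16) and Pes1 without any but ZT4 array 2 (0.063 to 0.34), and Pes1's other probe set differed by -0.46.

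Tgif1 (-0.84), a corepressor of TGF-beta signalling, was lower beside Bmp2 among 20 genes of that family, except without ZT4 array 3 (0.062). Ndrg1 (-0.81), the second called gene of 10 hypoxia targets beside Adm, was not called without ZT16 array 1 or 3 or ZT4 array 1 or 3 (0.053 to 0.078). Sesn2 (-0.52), a stress-induced brake on growth signalling, was the 1 call of 12 p53 targets; it fell by 1.06 in high fat diet. Its control call ended without ZT16 array 1 or 3 or any ZT4 array (0.051 to 0.081). Tiparp (-0.43) and Ahr (-0.26), the repressor and the receptor of the aryl hydrocarbon pathway, were lower, and each lost its call without any of 6 arrays, all but ZT16 array 4 for Tiparp and ZT16 array 2 for Ahr (0.056 to 0.17). The cold-inducible RNA-binding protein gene Cirbp (-0.45) was not called without any of 5 arrays (ZT16 array 1, 2 or 4, ZT4 array 1 or 2; 0.060 to 0.19), and the early response gene Ier3 (-0.55) without any but ZT16 array 4 (0.053 to 0.11).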
